A study of Mus musculus with 10 samples.

Results

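The comparison described here is that of mouse embryonic stem cells without the Mbd3 isoforms a and b (Mbd3ab KO, genotype Mbd3ab -/-) with wild type cells. Its members are all genes in the table that the authors deposited for it, read in libraries ABF2 and ABF3 of the mutant and E141 and E142 of the wild type. The table lists 443 genes, of which 442 were called at the authors' adjusted p-value of 0.05, out of about 13201 genes tested. That is 3.35% of genes tested, with 2.05% called higher and 1.3% called lower in the mutant. The series holds 10 libraries in 5 groups of 2, of which these 4 are used. All lines derive from E14, an established mouse embryonic stem cell line, and all were grown on gelatin-coated plates. The mutant was made with CRISPR/Cas9 in exon 2 of Mbd3, no other allele or agent is named for either group, and the labels do not say whether the mutant libraries come from 1 clone or from several. The labels describe 2 biological replicates a group, and p-values measure only the spread between these libraries.

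Mbd3 is a core subunit of NuRD, a complex that joins a nucleosome remodeller to histone deacetylases and acts at enhancers and promoters. Its isoforms differ at the N-terminal end, where a and b carry methyl-CpG binding domain sequence and c carries another sequence. In embryonic stem cells NuRD with Mbd3 is known for setting the level of pluripotency and lineage genes and for allowing the cells to leave self-renewal.

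Levels are given as normalised reads, the authors' read columns scaled to equal totals, with E141 before E142 and ABF2 before ABF3 wherever a pair of values is printed. Relative to E141, E142 held 1.59 times the total reads, ABF2 1.23 times and ABF3 0.71 times, and 135815 (ABF3) to 314302 (E142) reads fell in the listed genes. ABF3 is therefore the shallowest library, where 1 read is worth 1.60 normalised reads. None of the 42 markers of cell types examined (10 of embryonic stem cells, 10 of fibroblast feeders, 7 of primitive endoderm, 6 of trophectoderm, 5 of neural cells and 4 of mesoderm) was called in the Mbd3ab KO table, so they have no value in its columns. In the table of the Mbd3abc KO line, the same wild type libraries held 8340 normalised reads per kb of the pluripotency factor Pou5f1. Genes were selected for this contrast, so their folds are a description, and a gene missing from the table has no value here.

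Of the 442 called genes, 271 were higher and 171 lower in the mutant. All 442 had groups that did not overlap, which their selection largely fixes (3.35% of genes tested were called). The rises were larger than the falls: the median log2 ratio of group means was 1.59 for higher genes (263 with a fold, range 0.67 to 4.89) and -0.92 for lower genes (170 with a fold, range -4.75 to -0.43). Among higher genes 229 passed 2-fold, 81 passed 4-fold and 18 passed 8-fold. Among lower genes the counts were 72, 14 and 8, and 98 fell by less than 2-fold. The higher genes rested on fewer reads, with a median of 83.6 normalised reads in wild type and 39.1% of them under 50, against a median of 535 and 5.26% for lower genes. Above the median mean level of 224 normalised reads, 46.2% of 221 genes were higher, against 76.5% of the 221 at or below it. By class, 437 called genes were protein-coding, 4 were non-coding RNAs and 1 was a pseudogene.

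**Figure D1:**
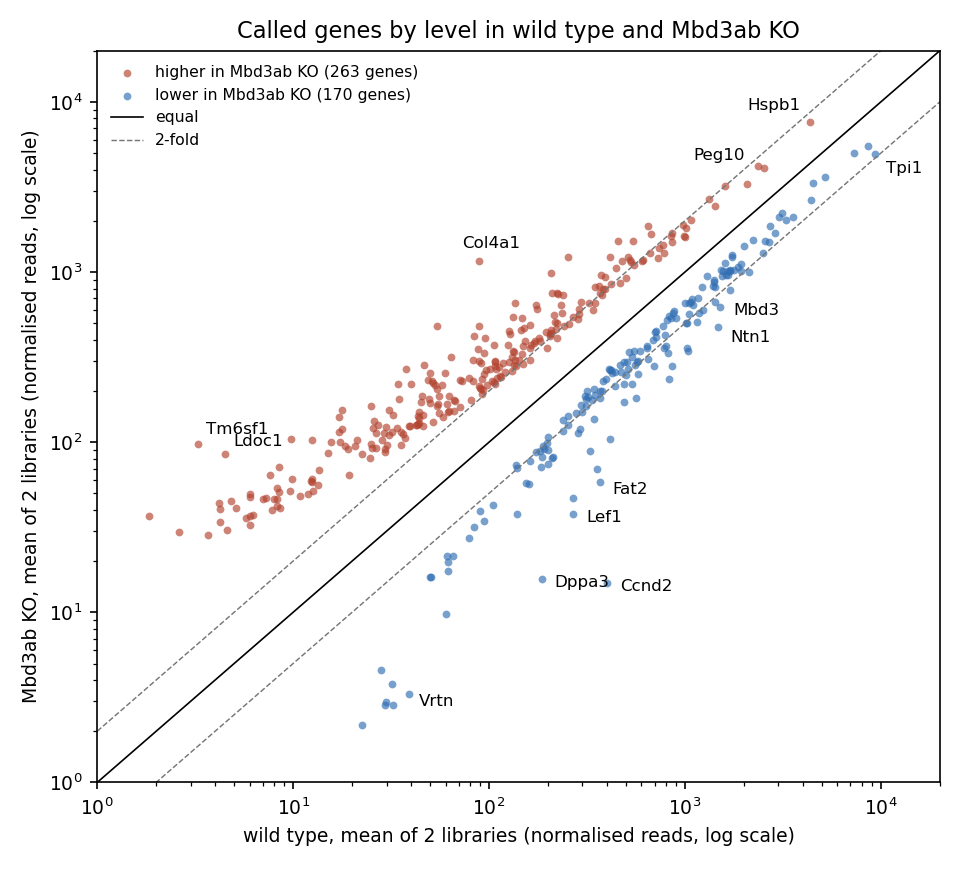
Mean of the 2 wild type libraries (x) against the mean of the 2 Mbd3ab KO libraries (y), in normalised reads on log scales, for the called genes with more than 3 reads in each group. Higher genes (263) spread far above the dashed 2-fold line at low wild type levels, and most lower genes (170) lie close to the lower 2-fold line at high levels.

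The mutant libraries did not move equally. ABF2 lay farther from the wild type mean than ABF3 in 214 of 271 higher genes (79.0%) and in 119 of 171 lower genes (69.6%). With ABF2 alone the median log2 ratio was 1.75 for higher and -0.99 for lower genes, and with ABF3 alone it was 1.31 and -0.85. The mutant libraries differed by more than 2-fold in 36 higher and 14 lower genes, against 13 and 1 for the wild type libraries. In 7 genes they differed by more than 4-fold: Ccnd2, Dppa3, Fgf17, Gna14, Hlf, Adamts3 and Myl2. Most of these are farther from wild type in ABF2, while Dppa3 is farther in ABF3. The part of the lower depth of ABF3 in this difference was not tested.

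**Figure D2:**
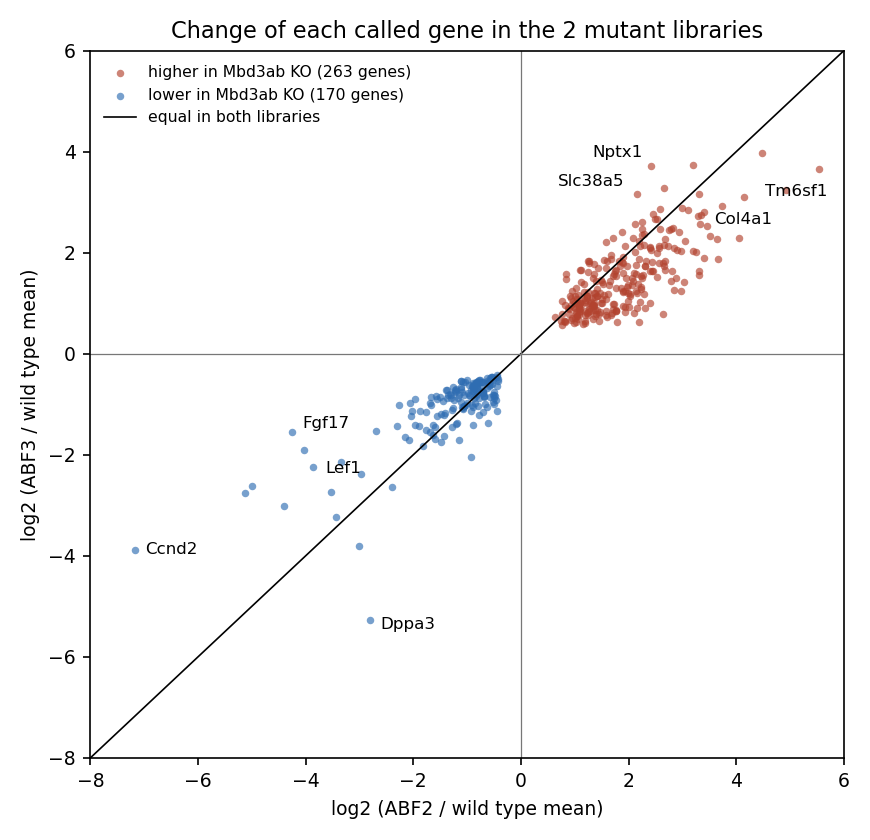
log2 ratio of ABF2 (x) and of ABF3 (y) to the wild type mean, 1 point per called gene (263 higher, 170 lower). Most points lie on the ABF2 side of the diagonal, and every gene has the same direction in both libraries.

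The targeted gene was checked first. Mbd3 (chromosome 10, 80392541 to 80399479 of mm10, minus strand) went from 1562 and 1473 normalised reads in wild type to 572 and 677 in the mutant. It fell 2.43-fold, from a mean of 1518 ± 63.2 to 624 ± 74.3 (SD, n = 2 each), with adjusted p = 5.96e-08 by DESeq2 in the authors' deposited table. Exon reads of the whole gene do not tell isoforms a, b and c apart, so the remaining reads cannot be assigned to 1 of them. Plk5, a polo-like kinase gene whose start site lies 43.0 kb from that of Mbd3, rose 2.27-fold, from 159 and 171 to 454 and 294. Of 21 genes of NuRD subunits in the list, the other called member was Chd5, a remodeller known from neurons, which rose 2.27-fold from 181 and 179 to 423 and 396. The chromatin modifiers Padi4, a peptidylarginine deiminase that acts on histones, and Hmga2, an architectural protein, rose 4.14-fold and 4.99-fold. The lysine methyltransferase Setd7 fell 2.62-fold, the Polycomb gene Scmh1 fell 1.88-fold and the methylcytosine dioxygenase Tet3 rose 2.56-fold. None of 16 COMPASS and Wdr5 genes, 27 genes of the 2-cell state, replication-dependent histones, ribosomal proteins or mitochondrial transcripts was called. Over all genes tested 3.35% were called, and how many of these members were tested is not known. The lack of calls in such short lists therefore says little about them.

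Of 13 called extracellular matrix genes in a list of 110, 9 were higher and 4 lower, with a median log2 ratio of 1.66 against 1.05 over all called genes. Higher genes made up 69.2% of the 13, against 61.3% of all called genes. The lists were written with earlier results of these data known, so neither the share of a list that was called nor its split supports anything about the list, and how many members of a list were tested is not known here. Col4a1 and Col4a2 encode the chains of type IV collagen, the network-forming collagen of basement membranes. Their start sites on chromosome 8 lie 3 bases apart in the authors' table, on opposite strands. Col4a1 went from 96.3 and 81.8 to 1567 and 766 normalised reads, a mean of 89.0 ± 10.3 against 1167 ± 567 (SD, n = 2 each), 13.1-fold higher. Col4a2 went from 46.5 and 62.6 to 578 and 383, 8.81-fold higher. In both genes ABF2 was the higher mutant library, and ABF3 still lay far above wild type. The DESeq2 log2 fold changes in the authors' deposited table were 3.01 ± 0.31 and 2.60 ± 0.29 (SE), with adjusted p = 5.91e-18 and 1.16e-15. In bulk RNA, more cells of a kind and more RNA per cell cannot be told apart, here and in every result that follows.

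Among the 9 higher genes were several that anchor epithelium to matrix. Lamb3, a chain of laminin-332, went from 13.6 and 20.6 to 196 and 86.2. Col17a1, the transmembrane collagen of hemidesmosomes, went from 28.3 and 36.3 to 175 and 113. From outside this list, Itgb4, the integrin subunit that binds laminin-332, went from 176 and 147 to 597 and 375. It was the only called gene in a list of 22 integrins (4.55%, against 3.35% of all genes tested). Lamb3, Col17a1 and Itgb4, partners in the hemidesmosome, rose 8.25-fold, 4.47-fold and 3.02-fold. Col7a1, the collagen of anchoring fibrils, joined them at 3.16-fold, from 49.9 and 42.0 to 156 and 134. The cartilage genes Matn1 and Col9a3 rose from low counts: Matn1, matrilin 1, went from 2.27 and 1.42 to 56.2 and 17.6, and Col9a3, a type IX collagen chain, from 17.0 and 18.5 to 223 and 86.2. Fbln2 and Col5a3 rose 2.94-fold and 2.43-fold. The 4 matrix genes that fell had more reads in wild type. Frem2, of the Fraser complex at the epithelial basement membrane, went from 486 and 639 to 182 and 184, 3.08-fold lower. Vcan, the proteoglycan versican, fell 1.93-fold, Smoc1 1.72-fold, and the laminin chain gene Lamb1 1.45-fold, from 2853 and 2576 to 1986 and 1755. Lamb1 thus moved against Col4a1 and Col4a2, although all 3 make basement membrane in early endoderm.

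Matrix proteases split as well, 6 higher and 3 lower of 9 called in a list of 73 (12.3%, against 3.35% of all genes tested). Higher genes made up 66.7% of the 9, near the 61.3% of all called genes. Htra1, a secreted serine protease, rose 3.39-fold, from 231 and 211 to 829 and 670.3, with adjusted p = 1.31e-10 by DESeq2 in the authors' deposited table. Adamts7 rose 4.28-fold, Adam8 6.46-fold, the gelatinase Mmp2 2.05-fold and the membrane serine protease St14 1.78-fold. Ctsh, a lysosomal cysteine protease, was at 1.13 and 1.42 in wild type and 22.1 and 16.0 in the mutant, with too few wild type reads for a fold. Adamts3, a procollagen protease, fell 10.3-fold, from 24.9 and 34.1 to 0.920 and 4.79, and its mutant values rest on 1 to 3 reads. Adam19 fell 1.79-fold from 2711 and 2664 to 1499 and 1507.

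Epithelial junction and keratin genes were 11 higher and 5 lower of 16 called in a list of 85, with a median log2 ratio of 1.43. The share of higher genes, 68.8%, lies near the 61.3% of all called genes. The simple epithelial keratins Krt8 and Krt18, which pair into 1 filament and lie 23.9 kb apart on chromosome 15, moved together. Krt8 went from 71.4 and 110.2 to 355 and 227, 3.20-fold higher. Krt18 went from 94.0 and 120.2 to 398 and 206, 2.82-fold higher. Of tight junction proteins, the claudin gene Cldn7 rose 3.09-fold, from 172 and 129 to 574 and 359, and tricellulin (Marveld2) 3.61-fold, from 27.2 and 29.9 to 107 and 98.9. The plakin genes Ppl and Evpl, which crosslink keratin at the cell border, rose 2.77-fold and 2.62-fold. Llgl2, a regulator of epithelial polarity with many reads, rose 1.79-fold, from 2419 and 2292 to 4373 and 4073, with mutant libraries close together. Myo5b, a motor of apical recycling endosomes, rose 6.34-fold.

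Among the 5 that fell, the type I keratins Krt17 and Krt42, whose start sites lie 8.88 kb apart on chromosome 11, fell 1.75-fold and 1.85-fold, from 319.5 and 324 and from 828 and 757. Close keratin paralogs can share reads, which makes each value uncertain. The plakophilin Pkp2 fell 1.85-fold and P-cadherin (Cdh3) 1.62-fold, the latter from 1145 and 1013 to 647 and 681. Outside this list Vim, vimentin, the intermediate filament of mesenchymal cells, fell 2.16-fold, from 1801 and 1603 to 655 and 924. The neuronal intermediate filament Ina fell 3.07-fold, from 808 and 904 to 304 and 254, with adjusted p = 6.92e-12 by DESeq2 in the authors' deposited table. Krt8 and Krt18 were thus higher, while Krt17, Krt42, Vim and Ina were lower.

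Cytoskeleton and actin binding genes were 12 higher and 4 lower of 16 called in a list of 196 (8.16%, against 3.35% of all genes tested). Higher genes made up 75% of the 16, against 61.3% of all called genes. Villin (Vil1), which bundles actin in microvilli, went from 26.1 and 16.4 to 132 and 73.4, 4.84-fold higher. Gelsolin (Gsn), which severs actin, rose 4.51-fold from 49.9 and 51.9 to 236 and 223. Ablim1, an actin-binding LIM protein, rose 4.84-fold, from 117 and 154 to 856 and 452. The myosins Myo7a and Myo1e rose 3.88-fold and 1.87-fold. Myl2, a ventricular myosin light chain, had no read in either wild type library and stood at 49.8 and 7.98 in the mutant. Against a floor of 3 reads per wild type library it was at least 10.4-fold higher, and this rests mostly on ABF2. Actn3, the alpha-actinin known from fast muscle, fell 3.50-fold from 857 and 794 to 167 and 305, and the filopodial myosin Myo10 fell 1.35-fold.

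**Figure D3:**
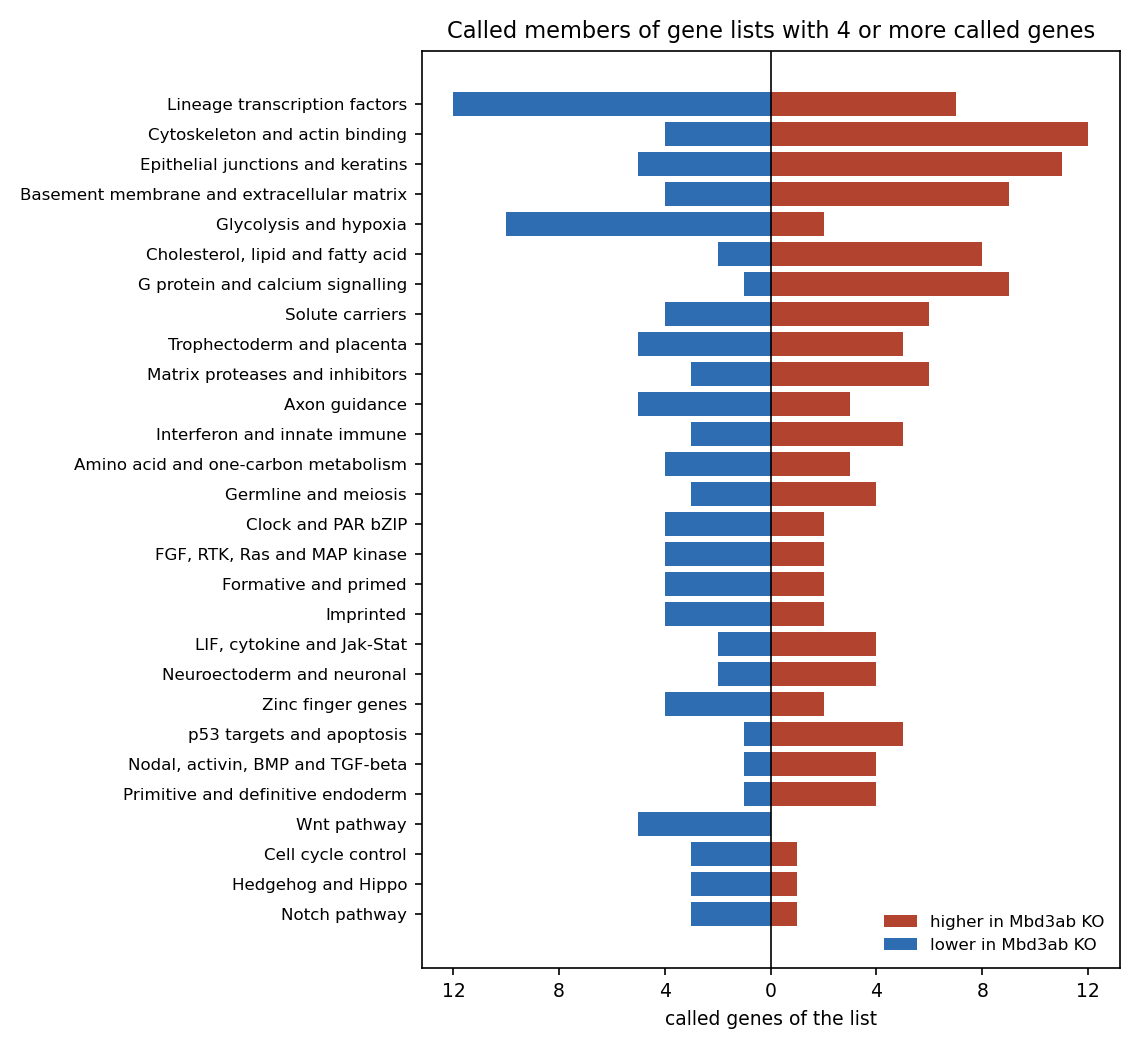
Number of called genes higher (right) and lower (left) in Mbd3ab KO in each list with 4 or more called genes. All 5 called Wnt genes lie on the left and 10 of 12 glycolysis and hypoxia genes do, while 9 of 10 G protein and calcium genes lie on the right. Of all called genes 61.3% were higher, and the lists were written with earlier results of these data known.

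Of 78 glycolysis and hypoxia genes 12 were called (15.4%, against 3.35% of all genes tested), 10 lower and 2 higher. Their median log2 ratio was -0.98 against 1.05 over all called genes, and 83.3% were lower, against 38.7% of all called genes. The list was written with earlier results of these data known, so neither share supports anything about it. Of the lower members, Stc2 and Slc16a3 lie on chromosome 11, which holds an excess of lower genes, as described below. In cells short of oxygen, the HIF transcription factors bind a short core sequence near genes of glycolysis, lactate export and survival. Because 7 of the 11 called members with a RefSeq promoter entry hold that core in the 250 bases before the start site, 3 of them are shown, with Ciart of the clock list for the related E-box. The core searched was ACGTG or GCGTG on either strand (CACGT or CACGC when read on the printed strand), and the clock E-box was CACGTG, which contains ACGTG on both strands. Sequences come from RefSeq on GRCm38.p6, run 5′ to 3′ on the strand of the gene and end 1 base before its start site, and capitals mark every match of the core or, in Ciart, of the E-box alone.
Slc16a3: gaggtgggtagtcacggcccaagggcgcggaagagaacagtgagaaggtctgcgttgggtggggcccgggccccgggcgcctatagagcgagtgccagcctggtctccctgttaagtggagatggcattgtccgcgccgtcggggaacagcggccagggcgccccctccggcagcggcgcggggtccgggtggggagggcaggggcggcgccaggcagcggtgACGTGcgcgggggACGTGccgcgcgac
Pfkfb3: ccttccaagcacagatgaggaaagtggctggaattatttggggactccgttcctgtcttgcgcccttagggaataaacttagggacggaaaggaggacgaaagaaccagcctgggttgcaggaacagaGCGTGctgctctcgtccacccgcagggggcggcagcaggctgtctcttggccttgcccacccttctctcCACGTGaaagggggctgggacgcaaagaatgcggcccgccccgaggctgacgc
Bnip3: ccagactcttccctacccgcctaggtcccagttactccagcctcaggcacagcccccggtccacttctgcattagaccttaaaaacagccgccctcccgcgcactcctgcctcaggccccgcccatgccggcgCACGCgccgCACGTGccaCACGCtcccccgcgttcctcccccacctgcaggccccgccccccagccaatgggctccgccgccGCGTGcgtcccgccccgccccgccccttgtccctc
Ciart: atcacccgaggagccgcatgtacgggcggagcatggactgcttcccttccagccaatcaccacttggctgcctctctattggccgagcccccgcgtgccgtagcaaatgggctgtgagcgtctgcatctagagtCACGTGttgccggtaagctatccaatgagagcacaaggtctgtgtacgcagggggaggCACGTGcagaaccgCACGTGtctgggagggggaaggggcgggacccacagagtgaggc
They lie at chr11:120948817-120949066, plus strand, at chr2:11502091-11502340, minus strand, at chr7:138909507-138909756, minus strand and at chr3:95882229-95882478, minus strand. Slc16a3 holds 2 matches and Pfkfb3 and Bnip3 hold a CACGTG among theirs. The core is common: 38.6% of 27025 RefSeq promoters of this length hold it, as do 54.4% of the 331 called genes with an entry. Of the 7 promoters with a match, 6 belong to lower genes (Stc2, Egln3, Pfkfb3, Slc16a3, Ddit4 and Bnip3) and 1 to Fbp2, which rose. Since 10 of the 12 called members are lower, most matches would lie in lower genes in any case. No match was found in this window of Car12, Gys1, Tpi1 or Arnt2, which says only that these letters are not there.

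The gene with most reads in this list was Tpi1, triosephosphate isomerase of glycolysis, which went from 9543 and 9218 to 4058 and 5789.8. It fell 1.91-fold, from a mean of 9381 ± 229.7 to 4924 ± 1224 (SD, n = 2 each), with adjusted p = 0.00561 by DESeq2 in the authors' deposited table. Slc16a3, the monocarboxylate transporter that exports lactate, went from 3613 and 3549 to 1923 and 2274, 1.71-fold lower. Pfkfb3, which makes the activator of phosphofructokinase, went from 389 and 349.9 to 195 and 168, 2.03-fold lower. In the first pair ABF2 was the lower mutant library and in Pfkfb3 it was ABF3, with no overlap with wild type in any. Glycogen synthase (Gys1) fell 2.20-fold, from 803 and 807 to 284 and 447. Called genes known to respond to low oxygen were among the lower ones. Egln3, the prolyl hydroxylase that marks HIF for degradation, went from 778 and 867 to 260.0 and 405, 2.47-fold lower. Bnip3, a mitochondrial receptor of mitophagy, went from 1267 and 1509 to 835 and 822, 1.67-fold lower. Ddit4, an inhibitor of mTORC1, fell 1.68-fold, carbonic anhydrase Car12 2.46-fold and the secreted stanniocalcin Stc2 3.99-fold, from 444 and 387 to 64.5 and 144. The 2 other called members rose. Fbp2 encodes the muscle fructose bisphosphatase of gluconeogenesis and went from 7.93 and 11.4 to 60.8 and 43.1. Arnt2 encodes a dimer partner of bHLH-PAS factors known from neurons, and rose 3.65-fold. In the Mbd3abc KO table, which shares the wild type libraries, Tpi1 was 8.10-fold lower, Slc16a3 6.93-fold lower, Egln3 7.52-fold lower and Bnip3 4.15-fold lower. In the Mbd3cΔN-ab KO table, from a line mutated in the same exon, Tpi1 was 2.33-fold lower, Slc16a3 2.46-fold lower and Egln3 1.48-fold lower, and Bnip3 has no value.

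Clock genes with a called change numbered 6 of 23 (26.1%, against 3.35% of all genes tested), 4 lower and 2 higher. The list was written with earlier results of these data known, so this share supports nothing about the clock. In the circadian clock, Clock or Npas2 with Bmal1 bind the E-box and switch on their own repressors. Bhlhe40, a repressor at the E-box that also responds to hypoxia and stands in both lists, went from 1040.1 and 1016 to 331 and 388, 2.86-fold lower. Nr1d1, the nuclear receptor REV-ERB alpha, went from 269.6 and 302 to 102 and 124, 2.52-fold lower. Ciart, a repressor of Clock and Bmal1, went from 224 and 177 to 67.3 and 112, 2.24-fold lower. Hlf, a PAR bZIP factor, fell 11.3-fold from 28.3 and 36.3 to 0.920 and 4.79, where ABF2 holds 1 read. On the other side Npas2 was at 0 and 2.13 in wild type and at 24.9 and 20.8 in the mutant, with no fold because wild type held 3 reads in all. Csnk1e, the kinase that acts on Period proteins, rose 2.80-fold, from 588 and 499 to 2083 and 959. The Ciart promoter printed above holds 3 E-boxes, and 6.05% of RefSeq promoters hold at least 1. The other 4 called members with an entry hold none in this window. Of the lower members, Hlf and Nr1d1 lie on chromosome 11, which holds an excess of lower genes, as described below. The labels give no time of harvest.

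Of 96 Wnt pathway genes 5 were called (5.21%, against 3.35% of all genes tested), and these 5 were lower. The other members did not pass the test or were not tested. Lef1, a DNA-binding partner of beta-catenin, went from 262 and 278 to 18.4 and 57.5, 7.11-fold lower. Its DESeq2 log2 fold change in the authors' deposited table was -2.11 ± 0.38 (SE), with adjusted p = 6.98e-06. Of the D-type cyclins, which couple growth signals to cell cycle entry, the called members Ccnd2 and Ccnd1, both known Wnt targets, fell by unequal amounts. Ccnd2 went from 391 and 412 to 2.77 and 27.1, 26.8-fold lower, the largest fall among genes with a fold. Ccnd1 went from 1549.9 and 1599 to 963 and 1068, 1.55-fold lower. Ccnd2 differs between the mutant libraries by more than 4-fold, and without ABF2 its fall rests on ABF3 at 27.1 normalised reads. The corepressor Tle4 fell 1.42-fold and the atypical cadherin Celsr2 1.69-fold. Among other cell cycle genes, Mycn fell 2.10-fold, from 2225 and 2000.0 to 862 and 1152, and the locus of the inhibitors p16 and p19, Cdkn2a, rose from 7.93 and 8.53 to 52.5 and 39.9. Outside the list of 96, Dact1, chosen after its values were seen because it antagonises Dishevelled, fell 2.10-fold, from 173 and 152 to 76.5 and 78.2. As a gene picked in this way it adds nothing to the split of the 5. Whether other called genes outside the list act in Wnt signalling and rose was not examined.

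Of 35 Notch pathway genes 4 were called (11.4%), 3 lower and 1 higher. Of 40 Hedgehog and Hippo genes 4 were also called (10%), 3 lower and 1 higher. Over all genes tested 3.35% were called, and 38.7% of all called genes were lower. With 4 called genes each, these splits say little about the pathways. Of the lower ones, Maml1 and Fat2 lie on chromosome 11, which holds an excess of lower genes. In Notch, the ligands Dll1 and Jag1 fell 3.67-fold and 2.23-fold, from 187 and 91.8 to 31.3 and 44.7 and from 525 and 452 to 205 and 233. The coactivator Maml1 fell 1.59-fold. The receptor Notch3 rose 2.02-fold, from 1406 and 1256 to 2617 and 2756, with adjusted p = 0.000162 by DESeq2 in the authors' deposited table. In Hedgehog, the receptor Ptch1 and the decoy Hhip, both known targets of the pathway, were lower. Ptch1 went from 2644 and 2379 to 1330.3 and 1248, 1.95-fold lower, and Hhip from 38.5 and 25.6 to 2.77 and 4.79. The giant cadherin Fat2 fell 6.28-fold, from 372 and 364 to 47.0 and 70.2, with adjusted p = 2.60e-14 in the authors' deposited table by DESeq2. Tead4, the factor through which Hippo signals reach trophectoderm genes, rose 2.36-fold from 329.7 and 365 to 829 and 808.

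In Nodal, BMP and TGF-beta signalling 5 of 80 genes were called (6.25%, against 3.35% of all genes tested). Higher genes were 4 of these 5, or 80%, against 61.3% of all called genes. The receptors Eng and Acvrl1, coreceptor and type I receptor in endothelium, rose 2.60-fold and 3.0-fold. The inhibitory Smad gene Smad7 rose 1.93-fold, from 1046 and 914 to 1867 and 1918, and the BMP modulator Twsg1 2.13-fold. Lefty1, a Nodal antagonist that Nodal itself switches on, fell 2.25-fold, from 1151 and 1146 to 419 and 602. In FGF and receptor tyrosine kinase signalling 6 of 149 genes were called (4.03%), 2 higher and 4 lower. The ligand Fgf17 fell 5.07-fold, from 391 and 317 to 18.4 and 121, with the fall far larger in ABF2. The Ras exchange factor Rasgrp1 fell 2.84-fold and the Ras inhibitor Spred1 1.65-fold. The receptors Fgfr4 and Tek rose 2.83-fold and 2.48-fold.

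Of 53 cytokine and Jak-Stat genes 6 were called (11.3%, against 3.35% of all genes tested), 4 higher and 2 lower. Higher genes made up 66.7% of the 6, near the 61.3% of all called genes. The receptor subunits Il6ra and Il10rb rose 3.35-fold and 4.77-fold from under 20 normalised reads. The transcription factors Stat5a and Stat5b, neighbours on chromosome 11, rose 2.26-fold and 2.23-fold, and as near-identical copies they can share reads. The kinase Jak3 fell 2.99-fold, from 1097 and 967 to 251 and 439, and Insl3, which overlaps its 3′ end on the same strand and can share its reads, fell 3.53-fold. Innate immune genes were 5 higher and 3 lower of 8 called in a list of 93 (8.6%). Their share of higher genes, 62.5%, also lies near that of all called genes. Xaf1, an apoptosis factor induced by interferon, rose 2.77-fold, from 121 and 92.5 to 273 and 319. The invariant chain Cd74 went from 36.3 and 31.3 to 119.8 and 121, and Tlr2, Cd55 and Nlrp3 rose 3.16-fold, 6.01-fold and 6.23-fold. Tmem173, the adaptor STING, rose 8.02-fold from 4.53 and 5.69 to 51.6 and 30.3. The antiviral membrane proteins Ifitm1 and Ifitm3, close paralogs on chromosome 7, fell 1.63-fold and 2.19-fold, from 3231 and 3339 and 719 and 851.

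Of 37 core and naive pluripotency genes 2 were called (5.41%, against 3.35% of all genes tested), both lower. Dppa3, a maternal factor and naive marker also known as Stella, went from 169 and 203 to 26.7 and 4.79, 11.8-fold lower, and its 2 mutant libraries differ by more than 4-fold. Nr0b1, the nuclear receptor Dax1, went from 1774 and 1453 to 915 and 1007, 1.68-fold lower. Of 28 formative and primed genes 6 were called (21.4%), 2 higher and 4 lower, with a median log2 ratio of -1.23. Lower genes made up 66.7% of the 6, against 38.7% of all called genes. Lefty1 and Car12, described above, were among the lower ones, and the ephrin receptor gene Epha1 rose 1.94-fold. Otx2, which drives the exit from the naive state, rose 2.73-fold, from 228 and 240.4 to 554 and 723, here with ABF3 the higher library. The other lower members, the homeobox genes Rhox5 and Rhox6, paralogs on the X chromosome that can share reads, fell 5.70-fold and 2.87-fold, Rhox5 from 254 and 281 to 50.7 and 43.1. Vrtn fell 11.7-fold, from 29.5 and 48.4 to 1.84 and 4.79. Lincenc1, a non-coding RNA of embryonic stem cells, fell 1.44-fold, from 2862 and 3203 to 2036 and 2169.

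Of 43 trophectoderm and placenta genes 10 were called (23.3%, against 3.35% of all genes tested), 5 higher and 5 lower. Over all called genes 61.3% were higher. Eomes, needed for trophoblast stem cells and later for mesoderm, rose 2.74-fold, from 69.1 and 53.3 to 176 and 159.6. With Tead4, Krt8, Krt18 and the retrotransposon-derived Peg10 it makes up the higher members. Tfap2c, a factor of trophoblast and germ cells, went from 1053 and 982 to 410.2 and 589, 2.04-fold lower, and Phlda2, a growth restrictor of the placenta, fell 1.75-fold. None of the 6 fixed trophectoderm markers was called. Of 44 endoderm genes 5 were called (11.4%), and 4 of these were higher and 1, Lamb1, was lower. Amn, amnionless, rose 5.16-fold, from 18.1 and 18.5 to 86.7 and 102, beside Col4a1, Col4a2 and Podxl, and none of the 7 primitive endoderm markers was called. Lineage transcription factors, chosen by symbol, were 7 higher and 12 lower of 19 called, with a median log2 ratio of -0.93. Beside Hlf, Lef1, Bhlhe40 and others given above, the lower ones included the AP-1 gene Fosl2, the ETS repressor gene Etv6 and the NF-kappaB subunit gene Relb, which fell 3.17-fold, 1.91-fold and 1.76-fold. Among the higher ones Foxj1, the master gene of motile cilia, rose 8.19-fold, from 15.9 and 9.25 to 159 and 46.3. Zfhx3, Nfatc2 and the homeobox gene Prrx2, which stands in no list, rose 3.57-fold, 5.03-fold and 4.20-fold, Nfatc2 from 86.1 and 81.1 to 407 and 434.

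Germline genes were 4 higher and 3 lower of 7 called in a list of 88 (7.95%, against 3.35% of all genes tested). Higher genes made up 57.1% of the 7, near the 61.3% of all called genes. Sohlh2, a bHLH factor of early germ cell differentiation, went from 227 and 186 to 1093 and 890.5, 4.81-fold higher, with adjusted p = 3.68e-17 by DESeq2 in the authors' deposited table. Dazl, the RNA-binding protein of germ cells, went from 13.6 and 13.5 to 99.6 and 38.3. Nlrp4f, an oocyte NLR gene, rose 6.78-fold and the piRNA helicase Mov10l1 2.93-fold. Tdrd12, a Tudor protein of the piRNA pathway, moved the other way, 3.69-fold lower, from 339 and 317 to 77.4 and 101. Nanos3 and Tex19.1 fell 3.08-fold and 1.83-fold. Imprinted genes were 2 higher and 4 lower of 6 called in a list of 72 (8.33%). Peg3 fell 2.50-fold, from 691 and 701 to 257 and 300.0, and the hydrolase gene Mest 1.60-fold. In the imprinted domain of chromosome 7, Slc22a18 rose 2.30-fold while Phlda2, 27.4 kb away, fell. Sfmbt2 fell 2.06-fold and Peg10 rose 1.61-fold, from 2472 and 2587 to 3945 and 4213. Peg3 is also among the 38 genes of the Mbd3c KO table, 3.38-fold lower there, as are Sohlh2, 3.0-fold higher, and Lamb3, 7.26-fold higher, against the same wild type libraries.

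Axon guidance genes were 3 higher and 5 lower of 8 called in a list of 84 (9.52%, against 3.35% of all genes tested). Lower genes made up 62.5% of the 8, against 38.7% of all called genes. The called secreted cues were lower: Ntn1, netrin 1, went from 1602 and 1359 to 399 and 549, 3.12-fold lower, and Slit2 and Slit3 fell 2.06-fold and 2.10-fold. The receptors Nrp2 and Ephb4 fell 2.12-fold and 1.61-fold, Nrp2 from 1507 and 1338 to 674 and 665. Sema7a, a membrane semaphorin that signals through integrins, rose 4.95-fold, from 69.1 and 59.0 to 306 and 329. Of 98 neuroectoderm and neuronal genes 6 were called (6.12%), and 4 of these were higher and 2, Ina and Vim, lower. Mapt, the microtubule protein tau and in no list, went from 193 and 159 to 632 and 587, 3.47-fold higher. L1cam rose 3.60-fold, the kinesin Kif1a 2.26-fold, complexin 1 (Cplx1) 5.16-fold and gamma-synuclein (Sncg) 6.54-fold. The potassium channels Kcnh3, Kcnt1 and Kcnk6 rose 4.25-fold, 7.68-fold and 2.33-fold. The glutamate transporter Slc1a1 rose 6.11-fold, from 48.7 and 44.1 to 312 and 255. None of the 5 neural markers was called.

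G protein and calcium signalling genes were 9 higher and 1 lower of 10 called in a list of 161 (6.21%, against 3.35% of all genes tested). Higher genes made up 90% of the 10, against 61.3% of all called genes. This list too was written with earlier results of these data known, so its split supports nothing about it. The thrombin receptor F2r rose 2.42-fold, from 240.2 and 233 to 628 and 520.3, and the adhesion receptors Gpr56 and Bai2 2.12-fold and 2.66-fold. The phospholipases Plcd1 and Plcd3 and the adenylate cyclase Adcy1 rose 1.89-fold, 1.96-fold and 1.94-fold. Gna14, a subunit of the Gq family, fell 6.12-fold, from 63.5 and 56.9 to 3.69 and 16.0. The ATP-gated channels P2rx7 and P2rx4, neighbours on chromosome 5, rose 3.77-fold and 3.05-fold.

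Cholesterol, lipid and fatty acid genes were 8 higher and 2 lower of 10 called in a list of 148 (6.76%, against 3.35% of all genes tested). Ebp, of cholesterol synthesis, is not in this list and was called lower, as given below. Lpl, lipoprotein lipase, went from 5.66 and 11.4 to 94.0 and 49.5, 8.42-fold higher. Fabp3, a fatty acid carrier, rose 2.49-fold from 648 and 695 to 2306 and 1036, and Acsf2, an acyl-CoA synthetase, rose 2.24-fold from 520.0 and 531 to 1347 and 1007. Acsl6, Acss1, Pnpla3, Agpat3 and Abca3 rose 3.36-, 3.07-, 2.41-, 2.04- and 2.17-fold. Slc27a2, a fatty acid transporter, and Smpdl3b fell 2.52-fold and 1.75-fold. Of 88 amino acid and one-carbon genes 7 were called (7.95%), 3 higher and 4 lower. Phgdh, the first enzyme of serine synthesis, went from 2814 and 2969 to 1803 and 1591, 1.70-fold lower, and Psph, the last, fell 1.57-fold. The alanine aminotransferase Gpt2 fell 2.03-fold, from 1017 and 1029.8 to 502 and 509, and the folate enzyme Aldh1l1 rose 3.37-fold. The multidrug transporters Abcb1a and Abcb1b, near-identical copies that can share reads, rose 3.41-fold and 5.41-fold, and in both ABF2 was the higher mutant library. The steroid enzyme gene Cyp11a1 and the prostaglandin synthase gene Ptges, which have called neighbours, rose 6.63-fold and 2.98-fold. Solute carrier genes were 6 higher and 4 lower of 10 called, close to the split of all called genes, 61.3% of which were higher.

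The p53 targets and apoptosis genes were 5 higher and 1 lower of 6 called in a list of 79 (7.59%, against 3.35% of all genes tested). Higher genes made up 83.3% of the 6, against 61.3% of all called genes. With 6 genes this split says little about the list. Dapk1, a death-associated kinase, went from 472 and 478 to 1266 and 1050.1, 2.44-fold higher. The BH3 protein Noxa (Pmaip1) rose 3.01-fold, the antiproliferative Btg2 2.28-fold, and Sesn1 and Ei24 2.08-fold and 1.75-fold. Of stress chaperones, 2 at opposite ends of the read range rose. The small heat shock protein Hspb1 went from 4400.5 and 4273 to 8244 and 6909, 1.75-fold higher, and Cryab from 5.66 and 2.84 to 42.4 and 38.3, 9.50-fold higher. Chosen after their values were seen, the haem oxygenase Hmox1 fell 1.51-fold and metallothionein Mt1 rose 2.04-fold. The autophagy receptor Sqstm1 fell 1.42-fold, from 3146 and 3131 to 2163 and 2269, and Park2, the mitophagy ligase parkin, fell from 22.7 and 22.1 to 2.77 and 1.60.

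Of the 442 called genes 241 stood in no list. The largest rise with a fold was in Tm6sf1, a membrane protein gene, which went from 2.27 and 4.27 to 153 and 41.5, 29.7-fold higher on 6 wild type reads or fewer per library. Ldoc1, a retrotransposon-derived X-linked gene, went from 1.13 and 7.82 to 99.6 and 70.2. Msln, the surface protein mesothelin, went from 6.80 and 12.8 to 162 and 47.9, 10.7-fold higher. Alox12b and Capn12, known from skin, rose 7.85-fold and 10.5-fold. Dok7 and Lypd5, chosen after their values were seen, had no wild type read and stood at 27.7 and 20.8 and 15.7 and 17.6 in the mutant, at least 8.75-fold and 6.0-fold higher against a floor of 3 reads per library. Among genes with many reads, the endocytic receptors Lrp1 and Sorl1 rose 1.99-fold and 1.59-fold, Lrp1 from 1599.8 and 1598 to 3431 and 2948. The heparan sulfate proteoglycan Sdc4 rose 2.87-fold, from 693 and 607 to 2499 and 1237, and the laminin receptor Bcam 1.71-fold. The phosphatase subunit Ppp2r2c rose 4.12-fold, from 126 and 138 to 606 and 482. Nearest the threshold, Acss1, Med1 and Parp12 were called and Plek2, at 18.1 and 18.5 and 58.1 and 59.0, was listed but not called.

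**Figure D4:**
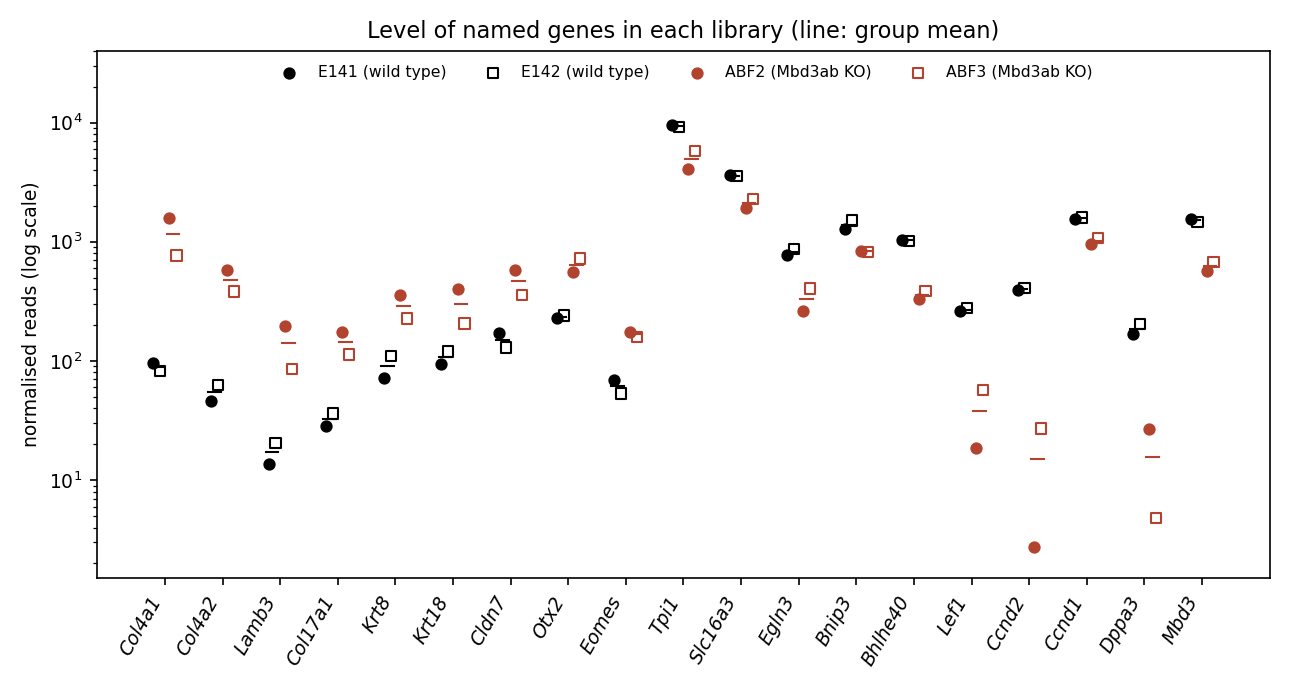
Normalised reads (log scale) of named genes in each of the 4 libraries, wild type in black and Mbd3ab KO in red, with lines at the group means. Wild type pairs lie close together, the mutant pair spreads most in Ccnd2 and Dppa3, and no gene shown has overlapping groups.

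Called genes were uneven along the genome. Of 442, 69 lay on chromosome 11 (15.6%), which holds 7.44% of RefSeq protein-coding genes. Lower genes made up most of these, 42 of 171 lower genes in all (24.6%), while 27 of 271 higher genes lay there (9.96%). The share of tested genes that lie on chromosome 11 is not known here. Of all called genes, 8.44% lay on it in Mbd3abc KO and 8.88% in Mbd3cΔN-ab KO. Per 100 RefSeq genes 2.61 were lower on chromosome 11, against 0 to 1.18 on every other chromosome. The 42 genes ran from 3131850 to 121148313 of mm10, with 8, 4, 13, 9 and 8 starting in successive windows of 25 Mb. Most fell by little: 30 of 42 fell by less than 2-fold, by 1.37-fold to 1.98-fold with a median of 1.64-fold. Of all genes lower by less than 2-fold 30.6% lay on chromosome 11, against 16.7% of those lower by more. The median log2 ratio of the 42 was -0.83 in ABF2 alone and -0.70 in ABF3 alone.

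Named members with many reads show the size of these falls. Larp1, an RNA-binding protein that controls translation of ribosomal protein messages, went from 7142 and 7498 to 4759.7 and 5225, 1.47-fold lower. Tns3, a focal adhesion tensin, went from 9034 and 8119 to 4988 and 6023, 1.56-fold lower. Nf2, the tumour suppressor merlin, went from 4362 and 4457 to 2418 and 2852, 1.67-fold lower. Of genes described above, Fat2, Ntn1, Stc2, Hlf and Nr1d1 also lie there and fell by more than 2-fold. Krt17, Krt42, Slc16a3 and Adam19 lie there too and fell by less than 2-fold. Of 686 called genes on chromosome 11 in Mbd3abc KO 70.7% were lower, against 45.8% elsewhere, and of 532 in Mbd3cΔN-ab KO 74.8% were lower, against 46.5%. In the Mbd3c KO table none of the 4 called genes there was lower. Only 11.8% of its called genes elsewhere were lower, so these 4 genes say little about chromosome 11 in that line. All 4 comparisons use E141 and E142, so a property of these libraries and 1 shared by mutants cannot be told apart here. Counts of the 42 shift with the test, to 0 with edgeR and limma and 23 with DESeq2 in refits of the listed genes, and in the DESeq2 refit to 1 and 2 without E141 and without E142, 26 without ABF2 and 30 without ABF3. Transcript GC content had a median of 53.6% in the 42 genes, 51.8% in other lower genes and 54.1% in higher genes. In 5 classes of called genes from lowest to highest GC, 51.7%, 53.4%, 65.9%, 69.3% and 65.9% were higher. The part of GC content in the pattern was not tested. Over 432 called genes the rank correlation of log2 ratio with GC was 0.12, across genes that are no independent replicates.

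**Figure D5:**
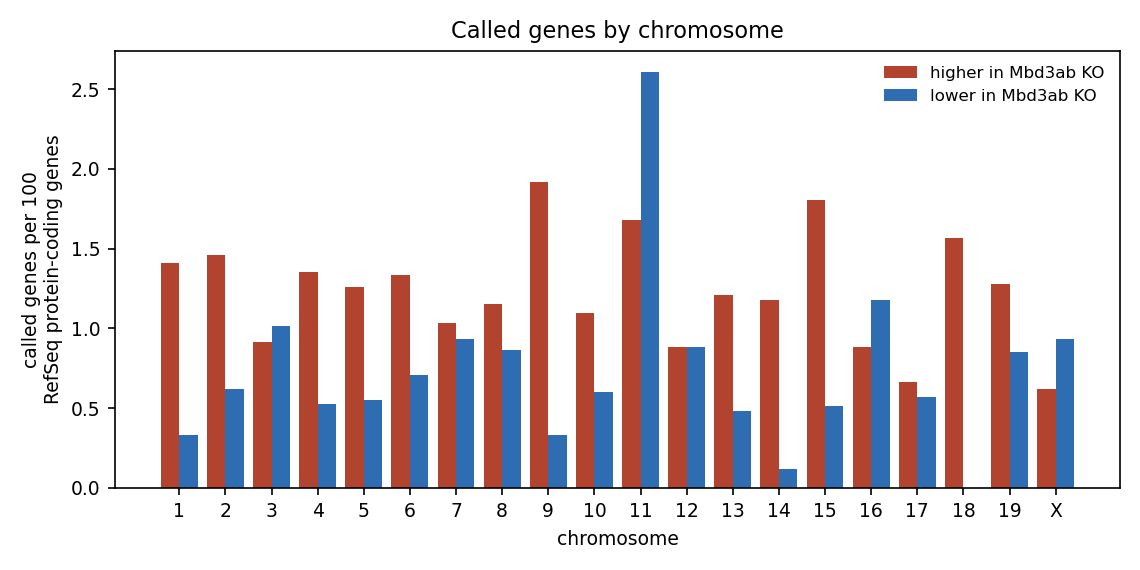
Called genes per 100 RefSeq protein-coding genes on each chromosome, higher and lower in Mbd3ab KO. Chromosome 11 has the tallest bar for lower genes at 2.61, and chromosome 18 has none.

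Called genes also had called neighbours. In 36 pairs the start sites lay within 100 kb, and 17 pairs were both higher, 12 both lower and 7 opposite. The same direction was thus shared by 80.6% of these pairs, against 54.4% of the 6448 pairs of called genes on 1 chromosome at any distance, as a description with no test. Of the 12 pairs that were both lower, 6 lie on chromosome 11, which holds an excess of lower genes. Col4a1 with Col4a2, Krt8 with Krt18, and Sncg with Mmrn2, whose start sites lie 835 bases apart, were higher together. Evpl and Foxj1, 97.3 kb apart on chromosome 11, were higher together. Opposite pairs included Plk5 with Mbd3, Slc22a18 with Phlda2, and Ebp with Slc38a5, 77.9 kb apart on the X chromosome. Slc38a5, a glutamine transporter, went from 15.9 and 18.5 to 76.5 and 153, 6.69-fold higher, and Ebp, of cholesterol synthesis, fell 1.66-fold. A930004D18Rik and Gm17762 overlap on opposite strands and both rose, 8.20-fold and 5.41-fold.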

How the data were processed

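Strand-specific libraries of ribosome-depleted RNA were sequenced from wild type E14 cells and Mbd3ab KO cells, 2 libraries each, per the labels' protocols. TopHat2, HOMER and DESeq2 and the build mm10 are named in the submitters' processing notes, without versions. Per the file headers, HOMER counted reads in exons on the opposite strand, condensed transcripts to genes and made no adjustment. The read columns hold a normalised signal that the authors deposited, scaled to equal totals. From DESeq2, the authors deposited a mean signal, a log2 fold change and its SE, a Wald score, and a raw and an adjusted p-value. The table lists selected genes only, so the authors' test at an adjusted p of 0.05 is the main result.

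Every value in each library was a whole multiple of 1 read within a tolerance of 0.01 read (100% of values), so reads were recovered by division. The number of genes tested, 13201, follows from how each p-value relates to its adjusted value. Folds are ratios of group means, given where each group held more than 3 reads; with no wild type read, a floor of 3 reads per library gives a lower bound. As alternatives, listed genes were tested again on recovered reads with edgeR 4.0.16, DESeq2 1.42.0 (with a fold change prior) and limma 3.58.1 in R 4.3.3, adjusted for 13201 genes; the scripts were tested on simulated data. Columns carry no replicate number. Promoters came from RefSeq (331 of 442 called genes matched by symbol), GC content from GENCODE M21 transcripts (441 of 442).

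Genes named are called members of 45 lists, the 20 largest changes, 15 highest mean levels and 10 smallest adjusted p in each direction, genes with a called neighbour within 100 kb, those whose mutant libraries differ by over 4-fold, those nearest the threshold, and Mbd3. Members, lists and rules were chosen with earlier results of these data known. Levels are comparable within a table only, and the count of 2 libraries a group limits precision.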

Additional observations from a re-analysis of the deposited data

How the results depend on the processing

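The count of called genes depended on the test. At an adjusted p of 0.01, 232 genes remained called (148 higher, 84 lower), with at least a 2-fold ratio 301 (229 and 72), and above the median mean level 221 (102 and 119). Refits of the listed genes called 0 genes (0 higher, 0 lower) with edgeR and 0 (0 and 0) with limma, with 442 at an unadjusted p under 0.05 for each tool, and 239 (145 and 94) with DESeq2. These refits take the spread from selected genes. Leaving out each library in turn in the DESeq2 refit, where a lone library is taken to vary as much as the other group, gave 7 to 284 genes, 5 to 155 higher and 2 to 129 lower. The lowest counts were without E141 (7) and without E142 (9), against 185 without ABF2 (83 higher, 102 lower) and 284 without ABF3. In all 4 of these refits 6 genes passed: Col4a1, Col4a2, Sohlh2, Nfatc2, Ccnd2 and Fat2. The cause was not tested.

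The median log2 ratio of higher genes was 1.31 (without ABF2) to 1.75 (without ABF3), 1.41 with a pseudocount of 10 and 1.57 with 1. That of lower genes was -0.85 to -0.99 on leaving out a library and -0.88 with a pseudocount of 10. Size factors of the authors' DESeq2 fit shifted called genes by -0.11 on the log2 scale in the median. Of 234 named genes with a fold, the ratio moved by more than 1 SD of the replicates in 40 with a pseudocount of 10, in 19 with these size factors, in 2 with a pseudocount of 1 and in 1 to 5 on leaving out a library. Since the groups of every called gene do not overlap, a library left out cannot turn a sign, and kept directions show no stability. The count of lower genes on chromosome 11, an alternative chosen after seeing the data, was 16 under an adjusted p of 0.01, 12 past 2-fold and 33 above the median mean level. No paired analysis was possible because the columns carry no replicate numbers. With 2 libraries a group an exact permutation test cannot pass the threshold, and low counts limit genes under 50 normalised reads.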
